A study of Rattus norvegicus with 19 samples.

Results

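The comparison described here set 5 cultures given medium conditioned by astrocytes with mutant human SOD1 against 4 cultures given medium conditioned by astrocytes with wild-type human SOD1, 9 of the 19 RNA sequencing samples of the series. All 19 were primary cultures of ventral spinal cord from embryonic day 14 Sprague-Dawley rats, themselves wild type, and every culture grew in the same medium with horse serum and chick leg extract. The mutant medium (mutSOD1 medium, titled hSOD1-G93A ACM) came from spinal cord astrocytes of newborn mice transgenic for SOD1 G93A, and the wild-type medium (wtSOD1 medium, titled hSOD1-WT ACM) from astrocytes expressing wtSOD1. Both media were applied for 90 min, and 5 untreated cultures (control), which had been given no conditioned medium of any kind, are used as a reference. The other 5 samples, given polyphosphate, entered the fit only to estimate the spread. The astrocytes had conditioned the same growth medium before it was collected, filtered and frozen. The labels do not give the number of medium preparations per genotype, so the genotype of the astrocytes and the preparation of their medium cannot be told apart. They give the age of the cultures as 7, as 4 and as 7 to 9 days in vitro in different fields, and the number of cultures per condition as 4 to 5 in one field and as 4 in another. Of 15597 genes in the deposited table, 11887 reached an FPKM (fragments per kilobase of transcript, scaled to the sequencing depth) of 1 in at least 4 of the 19 samples and were tested.

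SOD1 is a cytosolic superoxide dismutase, and mutations in its gene are one inherited origin of amyotrophic lateral sclerosis (ALS), a disease in which motor neurons die. Astrocytes that carry such mutations release factors into their medium that can harm motor neurons in culture. NF-kB is a family of transcription factors held in the cytoplasm by IkB proteins. Inflammatory cytokines such as TNF and interleukin-1 release it, and it then rapidly turns on chemokines, adhesion molecules and its own inhibitors. Chemokines are small secreted proteins that attract leukocytes, and glia and neurons of the spinal cord can make several of them.

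The 9 cultures expressed 11398 to 11578 genes at 1 FPKM or more, and their estimated depth relative to the median of the 19 libraries ran from 0.928 to 1.17. The cultures held neurons and glia: the 17 pan-neuronal markers summed to 2483 to 2877 FPKM with mutSOD1 medium and 2574 to 2688 FPKM with wtSOD1 medium, and the 13 astrocyte markers to 588 to 732 and 614 to 729 FPKM. The defining motor neuron marker Chat was near the limit of the table, at 0.48 to 1.34 and 0.55 to 1.08 FPKM, and was not tested. The 10 motor neuron markers in the table, Chat among them, summed to 27.1 to 37.1 and 29.3 to 39.95 FPKM, and 5 were tested. The libraries fell into 2 sets, found by clustering and not named by the labels, each with libraries of both media. Set 1 held replicates 1 to 3 with mutSOD1 medium and replicates 1 and 2 with wtSOD1 medium, and set 2 held replicates 4 and 5 and replicates 3 and 4. Set 1 had far more RNA of the myelin gene Mbp (169 to 372 FPKM against 6.54 to 9.62). Within set 1, replicates 1 and 2 with mutSOD1 medium clustered apart from the other libraries of these media, in a class (class 1) with no wtSOD1 library. Class 1 also held untreated replicate 1 and polyphosphate replicates 1 and 2. No rat transcript checks which medium a culture was given: rat Sod1 stood at 223 ± 18.1 (SD, n = 5) and 208 ± 21 FPKM (n = 4), but the human transgene was in the mouse astrocytes only.

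With mutSOD1 medium 7 of 13 chemokine genes, 8 of 22 NF-kB genes and 4 of 13 adhesion and matrix genes tested were lower than with wtSOD1 medium, led by Ccl2, Cxcl1, Ccl20 and Icam1. Of the 11887 genes tested, 55 were lower with mutSOD1 medium (0.463%) and 1 was higher (0.00841%) at a limma adjusted p under 0.05, and 11831 did not pass. Of the 55 falls, 25 were of 1 or more and 6 of 2 or more on the log2(FPKM + 1) scale, with a median of -0.92, while the median over all genes tested was 0.006. All log2 fold changes below are on that scale, on which the change of weakly expressed genes appears too small, and are given ± SE. At an unadjusted p under 0.05, 289 genes were lower and 310 higher. Over all genes tested, 5685 estimates were below 0 and 6202 above 0, to be set beside the counts of estimates given for the lists. For all 56 called genes the libraries of the 2 media did not overlap, as was the case for 324 of the 11887 genes (2.73%). The filter asked for 4 libraries and the wtSOD1 group held 4, so a gene high with wtSOD1 medium alone could pass it. "Fell" and "rose" below describe mutSOD1 medium relative to wtSOD1 medium. The per-library values are listed in the order of the replicate numbers, so the first 2 wtSOD1 values and the first 3 mutSOD1 values are of set 1.

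**Figure D1:**
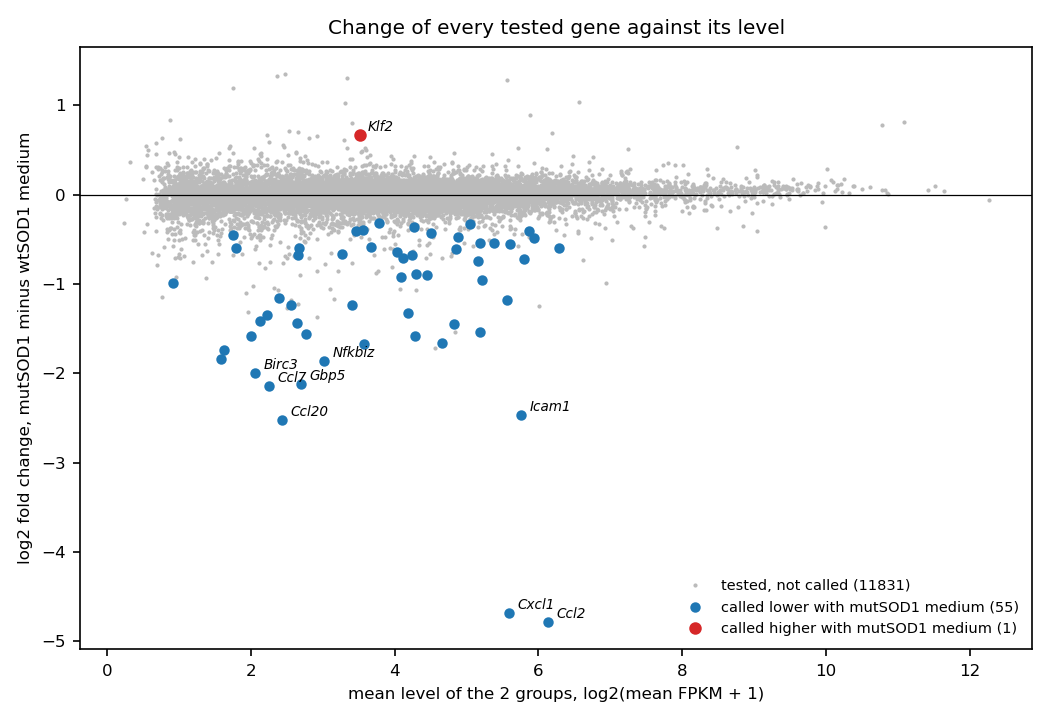
Log2 fold change (mutSOD1 minus wtSOD1 medium, vertical axis) against the mean level of the 2 groups (log2(mean FPKM + 1), horizontal axis) for the 11887 genes tested, each dot a gene, with the 55 genes called lower in blue and the 1 called higher in red. Ccl2 and Cxcl1 lie below -4.5 while nearly all other genes lie close to 0.

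The 3 largest falls were those of chemokines. Of 23 chemokine genes in the list, 13 were tested, 7 fell and 0 rose, and the median of the 13 was -1.34. Cxcl2 and Cxcl3 reached 1 FPKM only in wtSOD1 libraries, and Ccl7 only in those and in an untreated library (1.68 FPKM). These genes passed the filter only through the group where they were high, which biases the counts and the median towards falls. Ccl2 (identifier 24770), which attracts monocytes, stood at 168, 165, 98.5 and 105 FPKM in the 4 libraries with wtSOD1 medium and at 3.13, 3.33, 7.32, 2.37 and 3.97 FPKM in the 5 with mutSOD1 medium. Every wtSOD1 library was thus far above every mutSOD1 library, and untreated cultures had 2.82, 8.10, 5.12, 2.58 and 2.79 FPKM, which overlaps the mutSOD1 values. The mean FPKM was 33.3-fold lower (log2 fold change -4.78 ± 0.30, limma adjusted p = 4.8e-08). Cxcl1 (81503), a ligand of the neutrophil receptor CXCR2, stood at 112, 108, 71.6 and 74.7 FPKM with wtSOD1 medium, 3.55, 2.93, 2.03, 1.75 and 2.65 FPKM with mutSOD1 medium and 2.76, 3.00, 2.16, 3.26 and 2.93 FPKM without treatment. Its mean was 35.5-fold lower with mutSOD1 medium (-4.69 ± 0.16, limma adjusted p = 1.39e-12), the smallest p of the comparison, and again only the wtSOD1 libraries were high.

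Ccl20, the ligand of CCR6 on lymphocytes and dendritic cells, had 6.62, 9.32, 7.90 and 8.82 FPKM with wtSOD1 medium and 1.42, 0.94, 0.42, 0 and 0.50 FPKM with mutSOD1 medium, where 1 library was listed at 0 (-2.52 ± 0.25, limma adjusted p = 1.01e-05). Ccl7, a second monocyte attractant, had 8.56, 8.24, 4.40 and 5.99 against 0.74, 0.90, 0.80, 0.57 and 0.61 FPKM (-2.14 ± 0.19). For both genes the media did not overlap, and the mutSOD1 values overlapped the untreated ones. The CXCR2 ligands Cxcl2 (6.04, 5.59, 1.91 and 1.58 against 0.36, 0.10, 0.35, 0.09 and 0.18 FPKM, -1.84 ± 0.25) and Cxcl3 (4.95, 6.62, 1.88 and 1.89 against 0.30, 0.49, 0.45, 0.08 and 0.31 FPKM, -1.74 ± 0.23) were high with wtSOD1 medium mainly in the first 2 libraries, those of set 1. Cxcl10, which attracts T cells through CXCR3 and is induced by interferon as well as by NF-kB, went from 5.76 ± 2.28 to 1.58 ± 0.520 FPKM (-1.34 ± 0.19). For these 5 genes the limma adjusted p lay between 2.13e-06 and 0.000937. In a limma fit of the 9 libraries alone, Cxcl2 (adjusted p = 0.0504), Cxcl3 (0.0537) and Cxcl10 (0.071) did not pass. Cxcl1, Cxcl2 and Cxcl3 are close relatives, as are Ccl2 and Ccl7, and how fragments shared between copies were counted is not given in the sources used here.

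Among the chemokines that did not pass, Cxcl16, a transmembrane ligand of CXCR6, stood at 5.49 ± 1.05 against 11.1 ± 4.05 FPKM (-0.86 ± 0.26, limma adjusted p = 0.428). With the library set as a term of the fit it passed (limma adjusted p = 0.0221). Cxcl12, a constitutive ligand of CXCR4, stood at 46.8 ± 5.64 against 36.6 ± 3.97 FPKM (0.34 ± 0.11, limma adjusted p = 0.436), an estimate above 0. Ccl4 (-1.07 ± 0.45, limma adjusted p = 0.852) and the neuronal Cx3cl1 (-0.16 ± 0.08, limma adjusted p = 0.998) did not pass either.

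**Figure D2:**
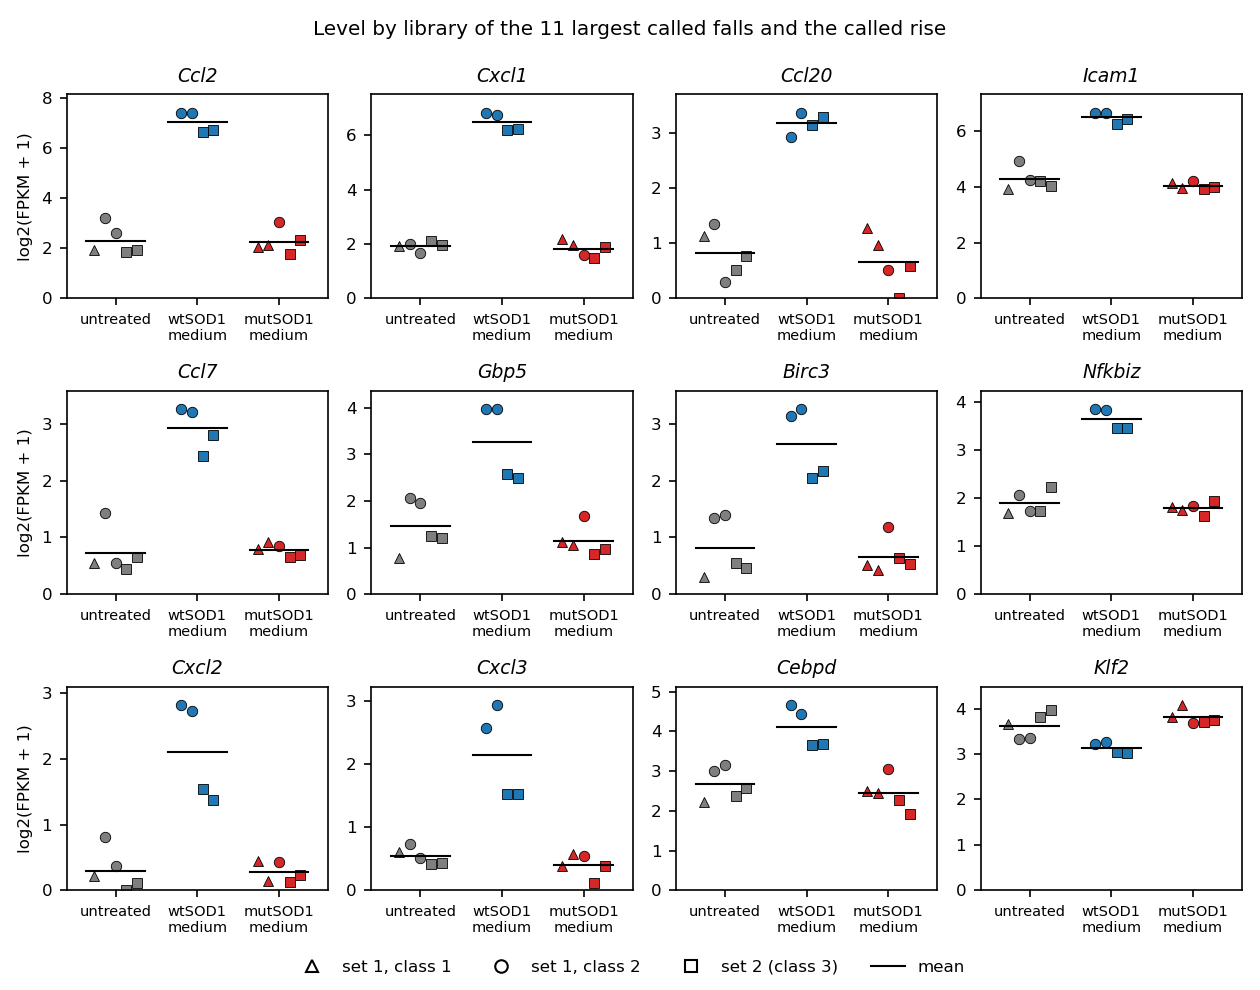
Level (log2(FPKM + 1), vertical axis, starting at 0) in each library for the 11 genes with the largest called falls and for Klf2, in untreated cultures (grey), with wtSOD1 medium (blue) and with mutSOD1 medium (red). Symbols mark the library set and class and bars the group means. The wtSOD1 libraries stand apart from the other groups in all 11 falls.

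Some genes of NF-kB itself and of its inhibitors fell. Of 22 tested members of the list of NF-kB subunits and feedback inhibitors 8 fell and 0 rose. The estimate was below 0 for 22 of 22, with a median of -0.30. Nfkbia (25493), which encodes IkB alpha, the inhibitor that holds NF-kB in the cytoplasm and is itself an NF-kB target, stood at 62.8, 65.1, 42.1 and 44.2 FPKM with wtSOD1 medium and 17.0, 17.9, 20.1, 15.7 and 17.3 FPKM with mutSOD1 medium (-1.53 ± 0.13, limma adjusted p = 2.13e-06). Untreated cultures had 14.9, 19.6, 18.5, 13.6 and 16.0 FPKM, at the level of the mutSOD1 libraries. Nfkbiz, a nuclear IkB protein that co-activates a subset of NF-kB targets, stood at 13.5, 13.4, 10.0 and 10.0 against 2.55, 2.37, 2.58, 2.09 and 2.85 FPKM (-1.86 ± 0.13, limma adjusted p = 6.17e-08). No mutSOD1 or untreated library exceeded 3.74 FPKM.

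The subunit genes changed less than Nfkbia and Nfkbiz. Nfkb2, the precursor of p52, went from 25.0 ± 3.22 with wtSOD1 to 9.34 ± 0.895 FPKM with mutSOD1 medium (-1.33 ± 0.14), and Nfkb1, the precursor of p50, from 27.6 ± 4.17 to 14.3 ± 1.47 FPKM (-0.89 ± 0.12). Rela, the p65 subunit, stood at 34.4, 34.5, 33.8 and 30.6 against 22.4, 21.7, 26.1, 23.8 and 25.1 FPKM (-0.47 ± 0.10, limma adjusted p = 0.0326), the smallest called fall of the list. Birc3, an inhibitor of apoptosis and ubiquitin ligase of the TNF receptor complex, stood at 7.83, 8.59, 3.11 and 3.49 against 0.43, 0.34, 1.26, 0.55 and 0.44 FPKM (-2.0 ± 0.28). Bcl3, an atypical IkB that binds p50 and p52, stood at 7.28, 7.56, 2.86 and 2.55 against 0.78, 1.05, 1.81, 0.45 and 0.54 FPKM (-1.58 ± 0.32, limma adjusted p = 0.0312). For both genes the highest mutSOD1 value was that of replicate 3, which did not reach the lowest wtSOD1 value. Nfkbie, the gene of IkB epsilon, fell by 0.71 ± 0.10. The call of Bcl3 ended in 6 of the 19 fits that each left out 1 library, with the highest adjusted p, 0.185, without wtSOD1 medium replicate 1, and that of Rela in 7, with the highest, 0.148, without wtSOD1 medium replicate 1. Of the members that did not pass, those with the smallest p were Birc2 (-0.31), Tank (-0.29), Tnip1 (-0.40) and Tnip2 (-0.40), with limma adjusted p from 0.178 to 0.668. With the library set as a term Tnip1 (limma adjusted p = 0.00459) and Birc2 (0.0279) passed.

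The promoters of the 55 were searched on both strands for the NF-kB consensus GGGRNNYYCC, a site of 10 bases. R stands for A or G, Y for C or T and N for any base. RefSeq windows on the rat assembly GRCr8, from 250 bases before to 50 after the start, matched 44 of the 55 genes by identifier. The consensus was present in 18 of the 44 windows (40.9%), against 936 of the 9586 windows of genes tested (9.76%) and 7.6% of all 27457 windows. The AP-1 motif TGANTCA was present in 9 of the 44 (20.5%), against 4.76% of the windows of genes tested and 7.33% of all windows, and overlapped an NF-kB match in 0 of the 44. A match is a description of the sequence and not a measured binding site, and a window without a match may still hold a site. The 250 bases before the start are printed here for 5 genes on which the results turn: 3 chemokines and Nfkbia, which hold a match, and Icam1, one of the largest falls, whose window holds none. Capitals mark the bases covered by a match to the consensus, and the strand of the gene is given with each position. In Cxcl1 and in the second stretch of Cxcl10, 2 matches overlap.
Cxcl1, chr14:17479322-17479571, minus strand: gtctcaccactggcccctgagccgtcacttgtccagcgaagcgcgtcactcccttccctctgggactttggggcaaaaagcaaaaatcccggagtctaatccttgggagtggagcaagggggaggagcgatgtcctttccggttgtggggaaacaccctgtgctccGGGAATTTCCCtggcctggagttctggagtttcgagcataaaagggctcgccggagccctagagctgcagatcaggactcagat
Ccl20, chr9:91836909-91837158, plus strand: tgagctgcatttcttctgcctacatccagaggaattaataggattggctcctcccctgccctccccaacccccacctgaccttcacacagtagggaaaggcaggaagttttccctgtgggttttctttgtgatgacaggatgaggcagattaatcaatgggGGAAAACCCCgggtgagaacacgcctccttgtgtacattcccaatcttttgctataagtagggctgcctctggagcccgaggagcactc
Cxcl10, chr14:15988816-15989065, plus strand: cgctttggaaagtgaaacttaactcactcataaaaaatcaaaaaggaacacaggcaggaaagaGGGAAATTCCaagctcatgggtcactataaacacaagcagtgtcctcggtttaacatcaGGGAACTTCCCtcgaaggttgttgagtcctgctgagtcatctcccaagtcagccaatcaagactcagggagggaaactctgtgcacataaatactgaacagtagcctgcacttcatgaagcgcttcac
Nfkbia, chr6:78597073-78597322, minus strand: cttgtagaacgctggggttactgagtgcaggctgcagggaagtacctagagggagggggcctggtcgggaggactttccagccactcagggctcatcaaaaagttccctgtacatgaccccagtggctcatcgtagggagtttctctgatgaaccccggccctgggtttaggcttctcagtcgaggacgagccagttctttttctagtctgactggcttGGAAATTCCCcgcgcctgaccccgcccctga
Icam1, chr8:27829595-27829844, plus strand: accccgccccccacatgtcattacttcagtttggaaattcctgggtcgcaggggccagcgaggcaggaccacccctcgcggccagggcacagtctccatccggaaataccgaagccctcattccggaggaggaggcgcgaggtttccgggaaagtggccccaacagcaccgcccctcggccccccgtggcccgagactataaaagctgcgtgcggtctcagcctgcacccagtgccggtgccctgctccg

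Matches also lay in the windows of Ccl7, Gbp5, Nfkbiz, Cxcl2, Bcl3, Nfkb2, Tfpi2, Irf1, Il6, Itga5, Nfkb1, Nfkbie, Itpkc and Pdgfb. The windows shown for Cxcl1, Ccl20 and Nfkbia thus belong to genes that were 35.5-fold, 12.4-fold and 3.05-fold lower by mean FPKM, and the window of Icam1 to a gene that was 5.84-fold lower without a match. The Icam1 window holds tggaaattcc, which departs from the consensus at its first base only and so was not counted. Ccl2 was among the 11 genes without a window.

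Of 13 tested adhesion molecules and matrix genes that inflammatory signals induce 4 fell and 0 rose, 12 of 13 estimates were below 0, and the median was -0.54. Icam1 (25464), the ligand of leukocyte integrins, whose promoter window is shown above, stood at 99.2, 101, 75.4 and 87.3 FPKM with wtSOD1 medium and 16.5, 14.5, 17.5, 14.0 and 15.0 FPKM with mutSOD1 medium (-2.47 ± 0.16, limma adjusted p = 5.16e-08). The 5 mutSOD1 values lay within a narrow band, and untreated cultures had 14.4, 29.8, 18.2, 17.5 and 15.2 FPKM. Tnfaip2, a TNF-induced protein of membrane tubes, went from 28.4 ± 5.01 to 8.71 ± 0.834 FPKM (-1.59 ± 0.15). Has2, which makes hyaluronan, went from 8.18 ± 1.93 to 2.38 ± 0.684 FPKM (-1.44 ± 0.21), and Tnfaip6, which binds hyaluronan, from 48.7 ± 2.03 to 33.2 ± 1.63 FPKM (-0.54 ± 0.11, limma adjusted p = 0.0294). Tnfaip6 lost its call in 9 of the 19 fits that left out 1 library, with the highest adjusted p, 0.13, without wtSOD1 medium replicate 2. Of the members that did not pass, Sdc4, a heparan sulphate proteoglycan (-0.57, limma adjusted p = 0.0713), Vcam1, the ligand of integrin alpha 4 beta 1 (-0.87, adjusted p = 0.163), Adamts1 (-0.68) and Cd44 (-0.53) had the smallest p. With the library set as a term Vcam1 (limma adjusted p = 0.00214) and Sdc4 (0.00223) passed.

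Of 25 tested members of the list of interleukin-6 family cytokines and STAT3 targets 6 fell and 0 rose, with a median of -0.39. Il6 (24498) was low everywhere, at 1.99, 1.61, 1.40 and 1.04 FPKM with wtSOD1 medium and 0.26, 0.38, 0.16, 0.29 and 0.20 FPKM with mutSOD1 medium (-0.99 ± 0.13, limma adjusted p = 0.000467). By mean FPKM it was 5.85-fold lower. Il6 reached 1 FPKM only in wtSOD1 libraries, so it was tested only through the group where it was high. That the groups did not overlap is therefore no separate support. Lif, a cytokine of the same family that acts on neurons and glia, stood at 51.1, 45.9, 25.5 and 28.5 against 10.0, 10.8, 14.1, 9.39 and 10.0 FPKM (-1.66 ± 0.24, limma adjusted p = 0.000984), again with the highest values in the first 2 wtSOD1 libraries. Cebpd, a transcription factor induced by interleukin-6 and interleukin-1, went from 17.2 ± 6.37 to 4.63 ± 1.68 FPKM (-1.67 ± 0.25). Stat3 (25125), the factor these cytokines activate, changed little in size but had tight replicates, with 67.3, 68.3, 64.6 and 63.5 against 51.4, 48.4, 49.5, 47.0 and 50.2 FPKM (-0.41 ± 0.05, limma adjusted p = 3.48e-05). Untreated cultures had 46.5, 48.7, 49.4, 49.6 and 49.1 FPKM. Cish, an inhibitor of JAK-STAT signalling, fell by 0.60 ± 0.11, and Gadd45b, a stress-induced regulator of kinases, by 0.49 ± 0.09. The call of Gadd45b ended in 2 of the 19 fits, with the highest adjusted p, 0.0867, without wtSOD1 medium replicate 1. Myc (-0.39), Cebpb (-0.42), Socs3 (-0.56) and Socs2 (-0.36) did not pass, with limma adjusted p from 0.0984 to 0.574. With the library set as a term Myc (limma adjusted p = 0.0293) and Socs3 (0.0499) passed.

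Of 26 tested cytokines and receptors of the TNF and interleukin-1 pathways 1 fell and 0 rose, with 23 estimates below 0 and a median of -0.21. The one that fell was Csf1, the growth factor of microglia and macrophages, at 51.0, 53.7, 72.6 and 81.2 FPKM with wtSOD1 medium and 30.1, 29.8, 22.0, 27.4 and 28.8 FPKM with mutSOD1 medium (-1.18 ± 0.17, limma adjusted p = 0.00102). Unlike Cxcl2 and Lif, its wtSOD1 values were higher in the last 2 libraries, those of set 2. Il1b (24494), the gene of interleukin-1 beta, stood at 18.1, 21.2, 2.08 and 2.26 against 2.34, 2.30, 3.83, 1.31 and 1.45 FPKM and did not pass (-1.37 ± 0.53, limma adjusted p = 0.744). In the limma fit of set 1 alone Il1b passed (adjusted p = 0.0276), but not in set 2 alone (0.32) or with the set as a term (0.106). Its 2 high values were the wtSOD1 libraries of set 1, and the groups overlapped. Tnf showed the same split, at 4.49, 5.34, 0.70 and 0.60 against 0.37, 0.51, 1.07, 0.30 and 0.26 FPKM, and was below the level needed for the test. Ripk2 (-0.52), Irak2 (-0.55), Tlr2 (-1.22) and Tnfsf9 (-0.43) had the smallest p of those that did not pass, with limma adjusted p from 0.305 to 0.722. With the library set as a term Tlr2 passed (limma adjusted p = 0.0449).

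Microglia, the macrophages of the nervous system, express Il1b, Tnf and many of the chemokines, and their markers differed between libraries. Of 17 microglia and macrophage markers 0 were called, 16 estimates were below 0, none was at 0 in all 9 libraries, and the median was -0.19 (-0.56 in set 1 and -0.08 in set 2). Their summed level was 112 to 485 FPKM with wtSOD1 medium, 113 to 485 FPKM with mutSOD1 medium and 120.5 to 999.7 FPKM in untreated cultures. In bulk samples fewer cells of a type and less RNA per cell cannot be told apart. The sum was 250.4 and 257 FPKM in mutSOD1 replicates 1 and 2 (class 1), and 485 FPKM in mutSOD1 replicate 3, beside 485 and 478 FPKM in wtSOD1 replicates 1 and 2. In these 3 libraries Ccl2 stood at 7.32 FPKM in mutSOD1 replicate 3 and 168 and 165 FPKM in the 2 wtSOD1 libraries, Il1b at 3.83 against 18.1 and 21.2 FPKM, and Tnf at 1.07 against 4.49 and 5.34 FPKM. In set 2 the sums were 113 and 124 FPKM with mutSOD1 medium and 112 and 137 FPKM with wtSOD1 medium, where Ccl2 stood at -4.65 and Il1b at -0.41 on the log2 scale.

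A few interferon-responsive genes fell. Of 26 tested members 3 fell and 0 rose, with a median of -0.18. Irf1, a transcription factor that both interferon gamma and NF-kB induce, stood at 7.53, 7.53, 4.99 and 4.99 against 2.15, 2.08, 3.05, 2.18 and 1.77 FPKM (-1.15 ± 0.16, limma adjusted p = 0.000541). Gbp5 and Gbp2, guanylate-binding GTPases, stood at 14.7, 14.7, 5.01 and 4.64 against 1.16, 1.09, 2.21, 0.83 and 0.97 FPKM (-2.12 ± 0.31, limma adjusted p = 0.00114) and at 7.07, 7.17, 3.63 and 3.67 against 1.81, 1.34, 2.13, 0.77 and 0.80 FPKM (-1.41 ± 0.30, limma adjusted p = 0.0418). Both were highest in the wtSOD1 libraries of set 1. Gbp2 lost its call in 10 of the 19 fits that left out 1 library, with the highest adjusted p, 0.232, without wtSOD1 medium replicate 1. Of those that did not pass, the smallest p were those of Gbp4 (-0.43, limma adjusted p = 0.178), Igtp (-0.39, 0.843), Stat2 (-0.20, 0.998) and Tapbp (-0.20, 0.998), and 12 of the 38 members in the table were too low to be tested. How fragments shared by the related guanylate-binding genes were counted is not given either.

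Some genes that damp inflammatory messages fell too. Of 18 tested genes of mRNA decay and anti-inflammatory feedback 3 fell and 1 rose, with a median of -0.08. Zc3h12a, the ribonuclease regnase-1 that degrades Il6 and other cytokine mRNAs, stood at 10.5, 10.8, 7.63 and 7.88 against 2.88, 2.66, 2.38, 1.89 and 2.46 FPKM (-1.56 ± 0.16, limma adjusted p = 1.69e-05). Zfp36, tristetraprolin, which destabilizes AU-rich mRNAs, went from 33.9 ± 3.80 to 21.9 ± 2.17 FPKM (-0.61 ± 0.13, limma adjusted p = 0.0418), and Ier3, a stress-inducible survival gene, from 68.0 ± 2.24 to 41.4 ± 6.97 FPKM (-0.72 ± 0.12). The call of Zfp36 ended in 13 of the 19 fits, with the highest adjusted p, 0.225, without wtSOD1 medium replicate 2. Klf2 (306330), a transcription factor that counters NF-kB target genes, was the one gene that rose, at 13.0, 15.9, 11.9, 12.1 and 12.4 FPKM with mutSOD1 medium and 8.32, 8.65, 7.22 and 7.10 FPKM with wtSOD1 medium (0.67 ± 0.12, limma adjusted p = 0.00886). Untreated cultures had 11.7, 9.11, 9.18, 13.0 and 14.8 FPKM, so that all 4 wtSOD1 values lay below every untreated and every mutSOD1 value. Without the libraries of class 1 the rise of Klf2 had a limma adjusted p of 0.322. Klf6 (-0.34, limma adjusted p = 0.109), Atf3 (-0.41, 0.562), Tsc22d3 (0.16, 0.998) and N4bp1 (-0.10, 0.998) did not pass.

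Immediate early genes, which neurons and glia switch on within minutes of a stimulus, were split. Of 40 tested 5 fell and 1, Klf2, rose, with a median of -0.12. Besides Ier3, Gadd45b and Zfp36, the AP-1 subunit Fosl1 went from 43.8 ± 2.62 to 25.9 ± 3.73 FPKM (-0.74 ± 0.11, limma adjusted p = 0.00162) and the small Maf factor Maff from 42.2 ± 2.66 to 28.7 ± 2.42 FPKM (-0.54 ± 0.07, limma adjusted p = 0.000541). The genes used to report neuronal activity gave no call. Fos stood at 171, 175, 92.0 and 87.3 FPKM with wtSOD1 medium and 141, 159.7, 164, 76.7 and 98.8 FPKM with mutSOD1 medium (-0.02 ± 0.28, limma adjusted p = 0.998), with lower values in the last 2 libraries of each group. Npas4 (0.09 ± 0.53), Arc (-0.04 ± 0.16), Egr1 (-0.22 ± 0.15) and Bdnf (0.11 ± 0.12) had overlapping groups and limma adjusted p of 0.998 each. Of 25 delayed activity-regulated genes 0 were called (median -0.10), and of 20 MAPK and growth factor feedback genes 0 (median -0.07).

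Of 21 tested genes of reactive astrocytes and the acute phase 2 fell, Cxcl10 and Sphk1, the kinase that makes sphingosine-1-phosphate (-0.67 ± 0.13, limma adjusted p = 0.0216), and 0 rose. The call of Sphk1 ended in 5 of the 19 fits, with the highest adjusted p, 0.137, without wtSOD1 medium replicate 1. Gfap (24387), the intermediate filament of astrocytes, stood at 38.6, 45.5, 23.3 and 26.3 against 20.6, 20.1, 26.7, 16.2 and 18.3 FPKM, with overlapping groups (-0.65 ± 0.26, limma adjusted p = 0.768). With the library set as a term it passed (limma adjusted p = 0.0446). Ptgs2, the inducible cyclooxygenase, had -0.36 ± 0.12 (limma adjusted p = 0.559), and S100a10 (-0.17) and Osmr (-0.45) did not pass either.

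Other genes that fell belong to none of the lists. Angptl4, a secreted inhibitor of lipoprotein lipase, stood at 41.9, 37.6, 39.8 and 42.7 against 13.0, 12.9, 13.6, 14.1 and 18.1 FPKM (-1.45 ± 0.13, limma adjusted p = 2.13e-06). Pgf, placental growth factor, a ligand of the VEGF receptor FLT1, stood at 14.4, 14.4, 12.6 and 14.2 against 5.25, 5.4, 5.00, 5.61 and 5.46 FPKM (-1.23 ± 0.12, limma adjusted p = 9.43e-06), with untreated cultures at 4.92, 3.38, 3.55, 3.47 and 3.31 FPKM. It was the 1 gene of the 55 whose mutSOD1 libraries were all above the untreated ones. Tfpi2, a protease inhibitor of the matrix, went from 7.34 ± 2.97 to 2.41 ± 0.574 FPKM (-1.23 ± 0.19), and Itga5, the fibronectin receptor subunit integrin alpha 5, from 48.1 ± 2.46 to 24.5 ± 2.73 FPKM (-0.95 ± 0.11). Map2k3, the kinase that activates p38, stood at 22.7, 22.7, 21.2 and 22.8 against 12.4, 13.1, 15.1, 13.3 and 14.3 FPKM (-0.68 ± 0.06, limma adjusted p = 7.39e-06).

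Itpkc, which phosphorylates inositol trisphosphate, fell by 0.64 ± 0.07, the secreted protein gene Scube3 by 0.67 ± 0.09, the ubiquitin ligase gene Trim47 by 0.89 ± 0.14, the GTPase gene Rab32 by 0.92 ± 0.19 and the growth factor Pdgfb by 0.59 ± 0.13. Their limma adjusted p ran from 1.59e-05 to 0.0487. The calls of Rab32 and Pdgfb ended in 10 and 13 of the 19 fits, with the highest adjusted p, 0.232 and 0.203, without wtSOD1 replicates 1 and 3 respectively. The co-chaperone Bag3 was the 1 called gene of 18 heat shock genes (-0.36 ± 0.07, limma adjusted p = 0.037), a call that ended in 14 of the 19 fits (highest adjusted p 0.173, without wtSOD1 medium replicate 1). The remaining 9 falls, named after their values were seen, were the smaller ones of Gfpt2 (-0.59), the mechanosensitive channel Piezo1 (-0.58), Rgs16 (-0.55), Esm1 (-0.45), Zswim4 (-0.42), Hivep2 (-0.41), Kctd11 (-0.40), Rnf19b (-0.33) and the nuclear receptor Ppard (-0.32). Leaving out 1 library ended the call of each of these 9 except Gfpt2 in at least 1 of the 19 fits.

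Of 27 tested genes linked to amyotrophic lateral sclerosis 0 were called, with a median of 0.0003. The smallest p was that of Optn, the autophagy receptor optineurin (-0.34 ± 0.08, limma adjusted p = 0.123), and Tbk1 (-0.25) and Ccnf (0.09) did not pass either. Of 25 NRF2 antioxidant and superoxide dismutase genes 0 were called (median 0.05), with Sod1 at 0.10 ± 0.10 (limma adjusted p = 0.998) and mitochondrial Sod2 at -0.36 ± 0.13 (limma adjusted p = 0.641, and 0.0443 with the library set as a term, where it passed). Of 11 voltage-gated sodium channel subunits 0 were called (median -0.12), of 40 potassium channel subunits 0 (median -0.06), of 27 genes of calcium channels and calcium handling 0 (median -0.13) and of 22 glutamate receptor genes 0 (median -0.04). Of 22 tested ATF4 stress response genes 0 were called although 19 estimates were above 0 (median 0.13), and of 48 cytosolic ribosomal protein genes 0, with 48 estimates above 0 (median 0.08). The summed FPKM of the libraries was 476788 ± 7689 with mutSOD1 medium and 467883 ± 3383 with wtSOD1 medium, a ratio of 1.02 (exact two-sided permutation p = 0.0714, and 0.0286 without mutSOD1 replicate 3). Of 25 TGF-beta, BMP and YAP targets 0 were called (median -0.004), the smallest p being those of Id3 (0.29), Id1 (0.37), Id2 (0.18) and Smad7 (-0.19).

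**Figure D3:**
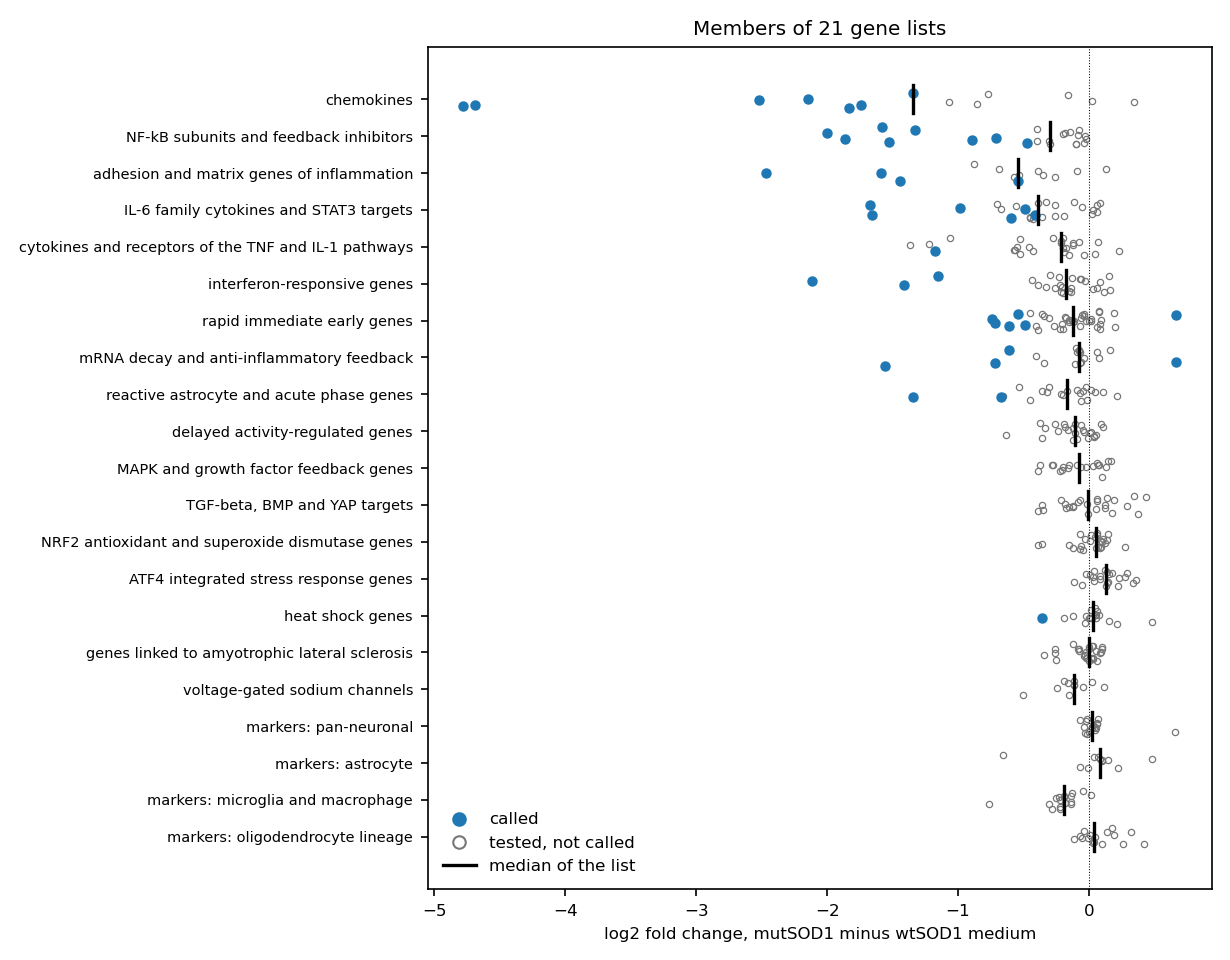
Log2 fold change (mutSOD1 minus wtSOD1 medium, horizontal axis) of the tested members of 21 gene lists (rows), each circle a gene, filled where called, with a black bar at the median of the list. The called members lie to the left of 0 in all lists shown except for Klf2, which stands at 0.67 in the 2 lists that hold it.

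The 10 lists of cell type markers held 0 called genes. The median was 0.03 for pan-neuronal, 0.09 for astrocyte and 0.04 for oligodendrocyte markers, the last -0.27 in set 1 and 0.01 in set 2. Markers of Schwann and neural crest cells had the lowest median, -0.29 (-0.75 in set 1 and -0.08 in set 2), with 5 of 8 estimates below 0. Their summed level in set 1 was 207 and 209.9 FPKM in mutSOD1 replicates 1 and 2, 344 FPKM in mutSOD1 replicate 3 and 313 and 360.0 FPKM with wtSOD1 medium. Markers of fibroblasts, meningeal and mural cells had the highest median, 0.31, with 11 of 12 estimates above 0. These summed to 3665 and 3616 FPKM in mutSOD1 replicates 1 and 2, 2539.9 to 2689 FPKM in the other mutSOD1 libraries and 2415 to 2631 FPKM with wtSOD1 medium. The 2 mutSOD1 libraries that stand apart in both lists are those of class 1. Untreated replicate 1 was also of class 1. Its fibroblast, meningeal and mural sum was 3081 FPKM, against 2183 to 2718 FPKM in the other untreated libraries. Its Schwann and neural crest sum was 196 FPKM, against 340 and 310 FPKM in the other untreated libraries of set 1. Without the class 1 libraries of every group, untreated and polyphosphate included, 35 genes were lower and 0 higher. All 56 called genes kept their sign, 34 of them their call. That fit also had fewer libraries to estimate the spread.

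Against untreated cultures 67 of 11887 genes were higher (0.564%) and 8 lower with wtSOD1 medium, and 45 of the 55 genes that fell were among them, while with mutSOD1 medium 2 of 11887 genes were called in either direction (0.0168%), 0 of the 55 among them. At an unadjusted p under 0.05, 426 genes differed between mutSOD1 medium and untreated cultures. Since the comparisons share libraries, the values are given side by side and their overlap is not a separate result. Ccl2 stood 4.74 above untreated with wtSOD1 medium and -0.04 with mutSOD1 medium, Cxcl1 4.58 and -0.11, Icam1 2.23 and -0.24, and Nfkbia 1.62 and 0.09. The median of the chemokine list was 1.32 with wtSOD1 medium and -0.02 with mutSOD1 medium, and that of the NF-kB list 0.26 and -0.06. The mutSOD1 and untreated libraries overlapped for 54 of the 55 genes, as they did for 11845 of the 11887 tested (99.6%), and the wtSOD1 and untreated libraries for 5 of the 55, against 11694 of 11887 (98.4%). Those 5 were Bcl3, Gbp2, Rab32, Piezo1 and Hivep2. For the first 4 of them it was untreated replicate 2, and for Hivep2 untreated replicate 1, that exceeded the lowest wtSOD1 library. Untreated replicate 2 also had the highest summed microglial markers, 999.7 FPKM, whose part was not tested.

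The 2 genes called with mutSOD1 medium were Smad7, an inhibitor of TGF-beta signalling, and Pmepa1, another feedback inhibitor of that pathway. Smad7 stood at 10.0, 10.5, 9.66, 10.8 and 11.7 FPKM with mutSOD1 medium, 11.6, 11.0, 13.1 and 12.8 FPKM with wtSOD1 medium and 5.96, 7.09, 7.24, 6.84 and 6.21 FPKM without treatment (0.59 against untreated, limma adjusted p = 0.00232, and 0.77, limma adjusted p = 8.78e-06). Pmepa1 stood at 98.9, 107, 96.7, 94.2 and 94.2 FPKM with mutSOD1 medium, 109.5, 108, 123 and 115 FPKM with wtSOD1 medium and 71.3, 71.3, 73.1, 55.2 and 60.6 FPKM without treatment (0.57, limma adjusted p = 0.0316, and 0.78, limma adjusted p = 0.000111). Both media were thus above every untreated library for these 2 genes, and between the media their difference did not pass (-0.19 and -0.21). Of the genes that fell between the media, Pgf (0.43), Ier3 (0.28), Gadd45b (0.28) and Tnfaip6 (0.23) had the highest estimates with mutSOD1 medium against untreated, and none of them passed (limma adjusted p = 0.966 each).

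**Figure D4:**
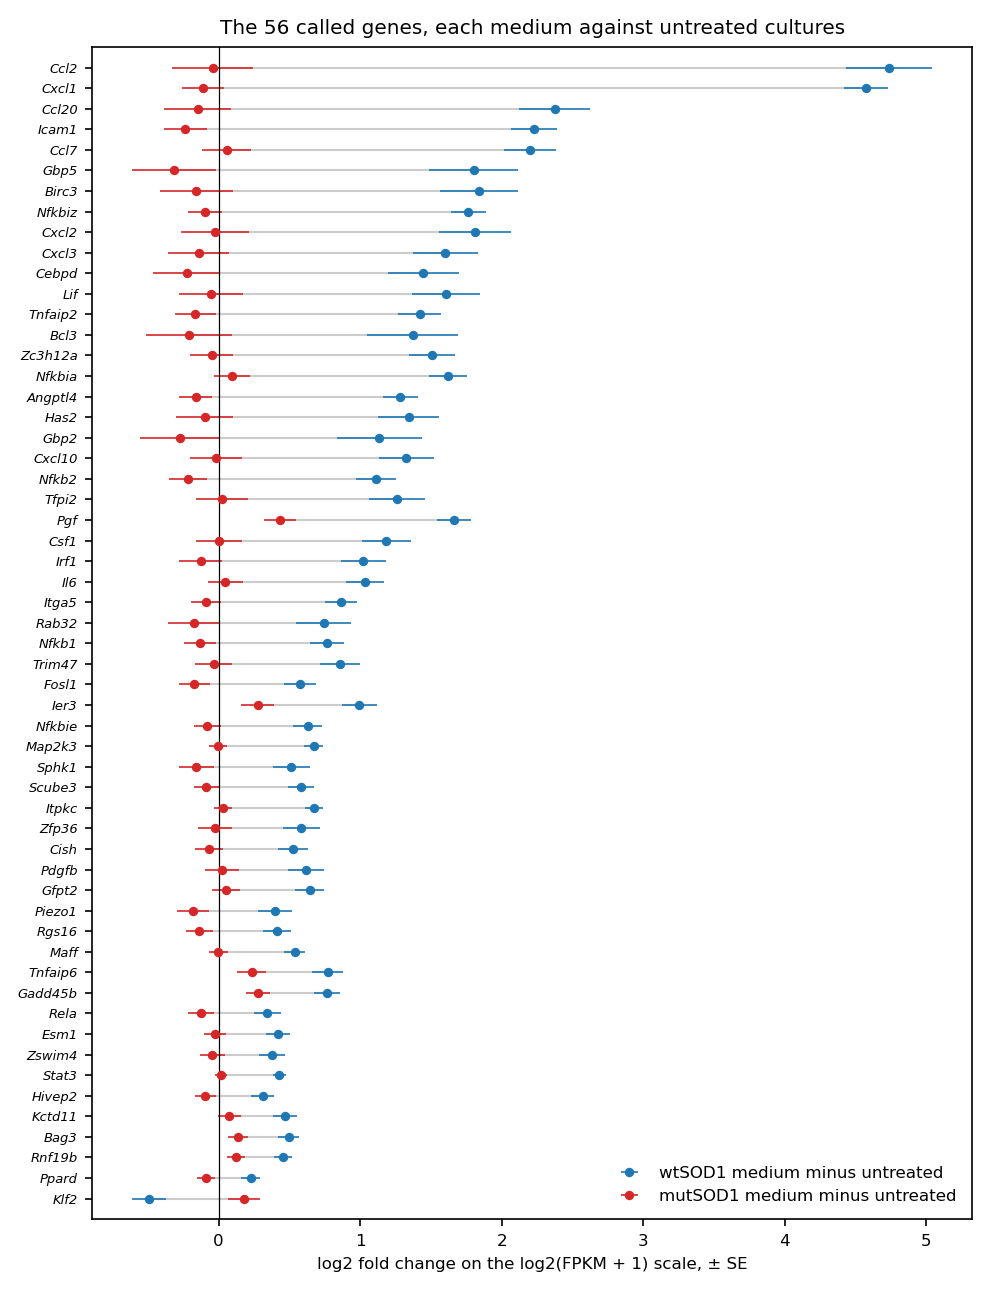
Log2 fold change against untreated cultures (horizontal axis, ± SE from the fit) of the 56 called genes (rows) with wtSOD1 medium (blue) and mutSOD1 medium (red), in the order of the difference between the media. The red points lie near 0 and the blue points to the right of them, except for Klf2, where blue lies to the left.

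The falls were present in both library sets. All 55 genes had estimates below 0 in set 1 (3 mutSOD1 against 2 wtSOD1 libraries) and in set 2 (2 against 2), and 31 of them were called in each set alone. The genes were chosen on both sets together. Ccl2 had -4.98 in set 1 and -4.65 in set 2, Cxcl1 -4.88 and -4.55, and Icam1 -2.56 and -2.40. The estimate in set 1 was larger in size for Cxcl2 (-2.43 and -1.27), Gbp5 (-2.69 and -1.62) and Birc3 (-2.50 and -1.52), and that in set 2 for Ccl20 (-2.24 and -2.93) and Csf1 (-0.93 and -1.42). By limma's test of the difference between the sets, 0 of the 11887 genes passed and 298 had an unadjusted p under 0.05. In that limma fit the smallest unadjusted p were those of Cxcl2 (0.000415), Fgf7 (0.000548), Cxcl3 (0.000553), Sod2 (0.000811) and Il1b (0.000884), with adjusted p of 0.999 each. Il1b stood at -2.45 in set 1 and -0.41 in set 2, Sod2 at -0.60 and -0.15, and the growth factor Fgf7 at 0.45 and -0.79. With the set as a term of the fit 92 genes were lower and 7 higher, all 56 called genes among them.

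**Figure D5:**
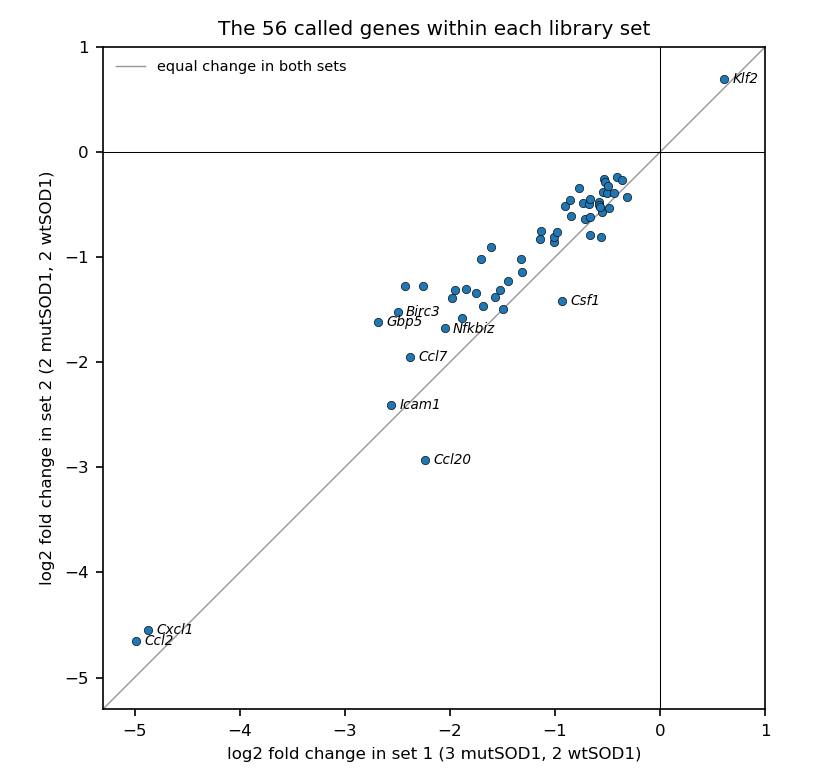
Log2 fold change (mutSOD1 minus wtSOD1 medium) of the 56 called genes in set 1 (horizontal axis, 3 against 2 libraries) and in set 2 (vertical axis, 2 against 2), each circle a gene, with the line of equal change. All 55 falls lie below 0 in both sets and Klf2 above 0 in both.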

How the data were processed

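Messenger RNA of 19 rat spinal cord cultures was sequenced after poly(A) selection. The authors' deposited table gives FPKM per gene and library with 2 decimals. Reads were aligned with HISAT to rn6, per the submitters' processing notes, and for the FPKM tool, its annotation and the counting of shared fragments nothing is given in the sources used here. Absolute depth is unknown, since the table holds no counts. Relative depth was estimated from the steps of 77 rarely detected genes, where 77.1% of 407 values lay within 0.1 fragment of a whole multiple.

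Genes at 1 FPKM or more in at least 4 libraries were fitted with limma 3.58.1 (R 4.3.3, statmod 1.5.0) on log2(FPKM + 1), all 19 libraries in one fit whose only term was the group, with a trended and robust prior. P-values were adjusted by Benjamini-Hochberg over the 11887 genes and called under 0.05. The 9 libraries of the comparison and the 5 untreated libraries are described as separate samples, from independent cultures per the labels. The limma P-values rest on the spread between libraries within groups, over all 19, which includes that between the library sets. They do not measure the spread between preparations of a medium, whose number is not given. Library sets and classes came from the data. The members and gene lists were chosen with earlier results of these data known. Genes were named if among the 40 largest called falls or rises, if called in a list described, if among the 4 uncalled list members with the smallest p, if among the 5 smallest p of the set comparison, or if fixed by name. Uncalled members were named for some of the lists only, and 1 gene so chosen is not reported here. The alternatives changed the pseudocount, the filter, the scaling, the libraries and the terms of the fit. Promoter sequences are from RefSeq (GRCr8), matched by gene identifier and used for no expression value.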

Additional observations from a re-analysis of the deposited data

Results flagged for a closer look

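Of 134 sets of values of one group examined, 11 had a highest or lowest library far from the others by Dixon's criterion. The criterion flags about 1 in 20 sets of independent, normally distributed values. Most sets here are of called genes measured in the same libraries, so that rate is no yardstick for the 11. In 6 of the 11 the library was mutSOD1 medium replicate 3, higher than the other 4 libraries of its group: Gbp5 at 2.21 FPKM (others 0.83 to 1.16), Birc3 at 1.26 (0.34 to 0.55), Nfkb2 at 10.88 (8.62 to 9.2), Tfpi2 at 3.43 (2.09 to 2.26), Rab32 at 13.49 (9.57 to 10.56) and Nfkb1 at 16.87 (13.3 to 14.01). That library had summed microglial markers of 485 FPKM, against 113 to 257 FPKM in the other 4, and their part in these values was not tested. With mutSOD1 medium, Angptl4 stood at 18.07 FPKM in replicate 5 (12.89 to 14.09 in the others), Klf2 at 15.85 FPKM in replicate 2 (11.89 to 13.03) and Bag3 at 13.93 FPKM in replicate 4 (16.11 to 16.86). With wtSOD1 medium, Pgf stood at 12.56 FPKM (14.23 to 14.44) and Map2k3 at 21.24 FPKM (22.7 to 22.77) in replicate 3.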

How the results depend on the processing

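Against 55 lower genes, 92 were called with the library set as a term, 106 with the library class as a term, 85 with a replicate block and 35 without class 1, the last chosen after seeing the data. Against 1 higher gene these fits gave 7, 13, 11 and 0, and a pseudocount of 0.1, the 9 libraries alone, set 1 alone and set 2 alone gave 2, 2, 2 and 5. Lower genes numbered 39 with the 9 libraries alone, 43 in set 1 alone and 69 in set 2 alone. With an FPKM minimum of 5, 40 of 9718 genes tested were lower. The 9 libraries alone kept 38 of the 56 calls. For wtSOD1 medium against untreated cultures, 75 genes called became 143 with the set, 239 with the class and 119 with the block. For mutSOD1 medium against untreated, 2 genes became 1 without a filter, 1 with median-of-ratios scaling, 1 with equal summed FPKM, 5 with the class, 5 with the block, 0 in set 1, 5 in set 2 and 0 without class 1. The difference between the sets gave 3 genes without a filter and 0 otherwise. Leaving out 1 library gave 39 to 58 lower and 1 to 3 higher genes (3 without wtSOD1 replicate 4), 56 to 78 genes called with wtSOD1 medium and 1 to 2 with mutSOD1 medium against untreated. The difference in summed FPKM, 8904, ran from 6219 to 11377.5. The cause of these changes was not tested. Same-numbered libraries of the 2 media had deviations correlated at 0.52, 0.44, -0.72 and 0.73. Every pair of libraries within a set correlated above 0 and every pair across the sets below 0. Only the same-numbered pair with the value -0.72 crossed the sets. These values follow the library sets and so cannot decide whether the replicate numbers pair the samples. All 56 called genes kept their sign in every alternative that tested them, and 25 kept their call in all of them. FPKM near 0 rest on few fragments, so the size of falls such as those of Cxcl2 and Il6 is imprecise. The addition of 1 to each FPKM also makes such falls appear smaller on the log2 scale.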
